A study of Mus musculus with 14 samples.

Results

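Neuroblast-like cells were the 504 of 4088 freshly isolated cells from the subventricular zone of adult mice that held 3 or more raw counts summed over Dcx, Sp8, Sp9, Stmn2, Cd24a, Nrxn3, Dlx1 and Dlx2. That sum also had to exceed the cell's sum over 7 glial genes (Slc1a3, Slc1a2, Aldoc, Clu, Gja1, Aqp4, Ntsr2) and its sum over 6 cycling genes (Top2a, Rrm2, Pcna, Mcm6, Ube2c, Pclaf). They made up 238 of 2209 cells (10.8%, exact binomial interval 9.51 to 12.1) of the wildtype library. In the library labelled Aplp1 knockout they were 266 of 1879 cells (14.2%, 12.6 to 15.8).

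Neuroblasts are the young neurons that adult neural stem cells of the subventricular zone produce through dividing, transit-amplifying progenitors. They still divide to some extent, travel in chains along the rostral migratory stream, and settle in the olfactory bulb as mostly GABAergic interneurons. Their identity rests on Dlx and Sp transcription factors, their movement on microtubule-binding proteins such as doublecortin and on polysialylated NCAM, and they lack the transporters, gap junctions and water channels of the astrocyte-like stem cells they descend from.

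The study used single-cell RNA libraries, read over 3′ ends, to compare active with quiescent neural stem cells and Aplp1-/- with wildtype ones. Aplp1 is a membrane protein of the amyloid precursor family. Both fresh groups were isolated from adult mice and received no treatment, 1 being wildtype and the other APLP1-/-. The labels give no age beyond adult, and the part of the gene that the knockout removes is not stated in them. Hash tags, DNA-barcoded antibodies here against MHC class I and CD45, marked the mouse of origin. Each genotype had 3 tags, taken here as 3 mice, within 1 library. Genotype and library therefore cannot be told apart, and no test between genotypes was possible outside the tags.

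The fresh libraries were shallow. They held 1133263 and 1227695 counts in all, with medians of 364 and 424 counts per cell. The neuroblast-like cells were deeper, at medians of 570 and 598 counts against 350 and 403 in all other cells, and took 14.9% and 19.8% of their library's counts. For comparison, rules of the same form chose 1469 and 1002 glial cells by the 7 glial genes, 98 and 140 cycling cells by the 6 cycling genes, and 24 and 31 microglial cells by microglial markers; these names stand for the rules. Both libraries were labelled neural stem cells, yet they held the microglial cells just named. Gfap, an astrocyte and stem cell gene, stood at 33.2 and 20.3 CPM outside the neuroblast-like cells. The 7 glial genes of the rule stood higher there, from Aqp4 at 339 and 167 CPM to Gja1 at 9995 and 5928 CPM. CPM is a gene's counts summed over the cells of a group, per 1000000 counts of that group. The libraries shared 13 barcodes, of which 2 were neuroblast-like cells of the wildtype library and 0 of the knockout-labelled one. Intervals and limits given throughout are 95% and cover counting error only.

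The 8 chosen genes stood above the other fresh cells by construction, so their levels describe the cells and are no result. Sp8, a zinc finger factor of olfactory bulb interneurons (mm10, chr12:118846288-118852578), was at 7062 CPM in the wildtype neuroblast-like cells and 73.7 CPM in all other cells of that library. The knockout-labelled library had it at 5106 and 91.4 CPM. Sp8 was seen in 67.6% and 68.4% of the neuroblast-like cells, and up to 53 and 64 counts came from 1 cell. Its relative Sp9 was at 762 and 692 CPM against 15.6 and 16.2. The neighbouring homeobox genes Dlx1 and Dlx2 (chr2:71528113-71533981 and chr2:71543408-71546754) stood at 514 and 465 CPM against 49.8 and 53.8, and at 909 and 1342 CPM against 106 and 204.

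Dcx, the microtubule-binding doublecortin (chrX:143855842-143933396), was at 1228 and 881 CPM against 61.2 and 50.8. Stmn2, a tubulin-binding stathmin of growing neurites, was at 709 and 609 CPM against 19.7 and 19.3. Cd24a, a small surface glycoprotein, was at 2273 and 2825 CPM against 131 and 169. Nrxn3, a neurexin that mature neurons also use, was at 1364 and 836 CPM against 69.5 and 96.5. All 8 genes had 0 counts in the 24 and 31 microglial cells, which together held few counts.

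**Figure D1:**
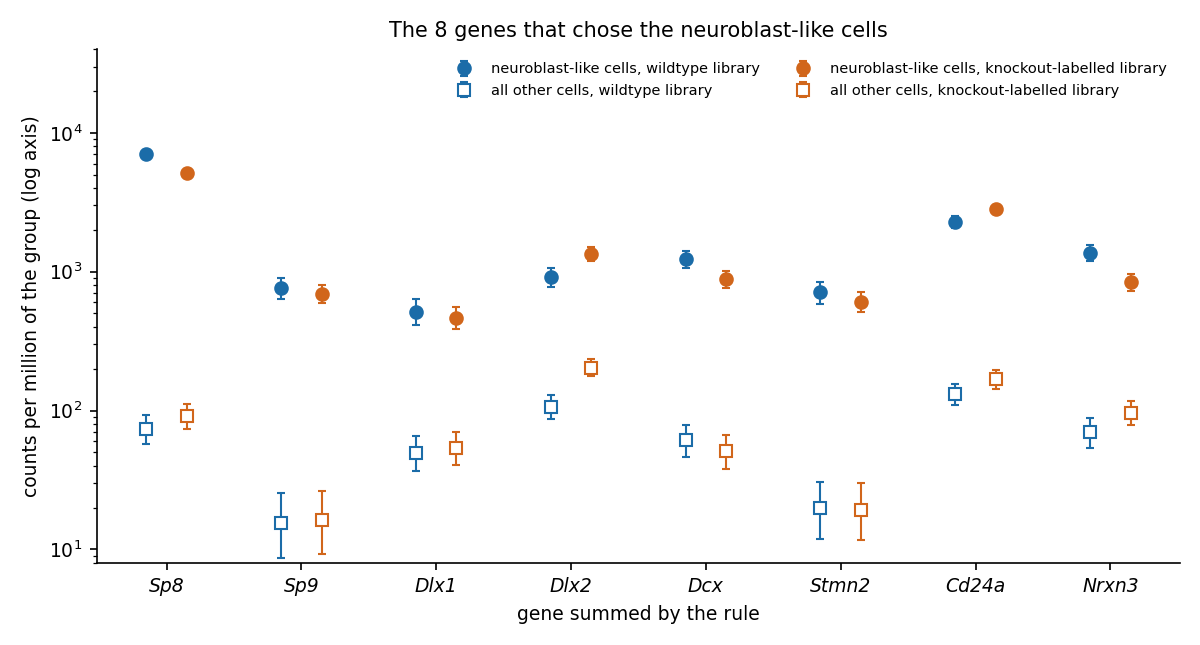
CPM (log axis) of the 8 genes that the rule sums, in neuroblast-like cells (filled circles) and all other fresh cells (open squares) of the wildtype and knockout-labelled libraries; bars are 95% Poisson intervals. Each gene lies well above the other cells in both libraries, from 73.7 to 7062 for Sp8 in the wildtype library, which the rule itself brings about.

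Each of the 8 genes was also measured in cells chosen by the remaining 7, so that the gene itself had no say. The glial and cycling conditions of the rule were kept, and their part in the folds was not tested. Sp9 was 15.9-fold (interval 10.9 to 23.6) and 20.4-fold (13.9 to 30.9) higher in the chosen cells of the wildtype and knockout-labelled libraries. Stmn2 was 14.0-fold and 12.3-fold higher, and Sp8 12.5-fold and 8.28-fold. Cd24a followed at 8.02-fold and 6.90-fold, Nrxn3 at 8.00-fold and 4.86-fold, Dcx at 7.07-fold and 6.51-fold, and Dlx1 at 5.78-fold and 4.34-fold. Dlx2, which dividing progenitors also use, had the smallest folds of the 8, at 4.71 and 3.40. Each gene was thus higher in the cells chosen by the other 7 and by the glial and cycling conditions, in both libraries.

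The choice was not equally firm for every cell. The 8-gene sum had a median of 7 and 8 counts and reached 80 and 124, and 26 and 29 cells stood at exactly 3. Counts of 3 or more of the genes were present in 63.0% and 62.8% of the cells, while 21 and 31 cells owed their place to a single gene. A glial count was absent from 153 (64.3%) and 183 (68.8%) of them. A count of the cycling genes was present in 65 (27.3%) of the wildtype and 108 (40.6%) of the knockout-labelled neuroblast-like cells, or 20% and 29.7% after every cell was thinned to 300 counts, with 48 and 47 shallower cells left out.

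Neuroblast markers that the rule did not use stood above the other cells as well. The 9 of 11 such neuroblast markers present in the tables (Sox4, Sox11, Dlx5, Dlx6, Gad1, Gad2, Igfbpl1, Robo2 and Stmn4) summed to 10982 and 8927 CPM, against 1904 and 1918 in all other cells. Sox4 gave most of these counts. Microglial markers summed to 5.90 and 24.7 CPM against 232 and 375, ependymal markers to 5.90 and 0 CPM, and oligodendrocyte precursor markers to 0 and 45.3 CPM. Gfap had 0 counts in the neuroblast-like cells of both libraries.

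Markers of mature striatal neurons were the exception. They summed to 596 and 910 CPM against 218 and 261 in all other cells, and only 1 of 11 (Adora2a, in the wildtype library) was at 0. Just 7 and 12 of the neuroblast-like cells held 2 or more such counts. These cells were deep, at medians of 1207 and 1650.5 counts, and gave 6.44% and 9.80% of all neuroblast-like counts. They held 91 of the 101 and 215 of the 221 mature neuron marker counts. The other 231 and 254 neuroblast-like cells had these markers at 63.1 and 27.4 CPM, below all other cells. That split was made on the same markers.

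The neuroblast-like cells differed in which rule gene led. Sp8 gave the most counts in 116 of the wildtype and 111 of the knockout-labelled cells, Cd24a in 33 and 50, Dcx in 18 and 13, Nrxn3 in 17 and 15, and Dlx2 in 9 and 20. Cells led by Nrxn3 carried mature striatal neuron markers at 4133 and 9182 CPM. Those led by Sp8 carried them at 553 and 70.3 CPM. Penk, the enkephalin precursor of striatal projection neurons, was at 1518 and 1377 CPM in the Nrxn3-led cells. In 23 cell cycle genes outside the rule (without Tubb5, a tubulin that all cells use), cells led by Dlx2 stood at 4851 CPM (interval 3551 to 6470) and 7684 CPM (6734 to 8729). Those led by Nrxn3 stood at 4554 CPM (3421 to 5942) and 861 CPM (482 to 1420). These intervals leave out the spread between cells, and the groups held few cells. High sums were not particular to Dlx2. The 3 and 8 cells led by Dlx1 stood at 7937 and 9986 CPM, and the 7 and 4 led by Sp9 at 15742 and 2213 CPM. These groups share the genes that define them, so no test was made between them.

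**Figure D2:**
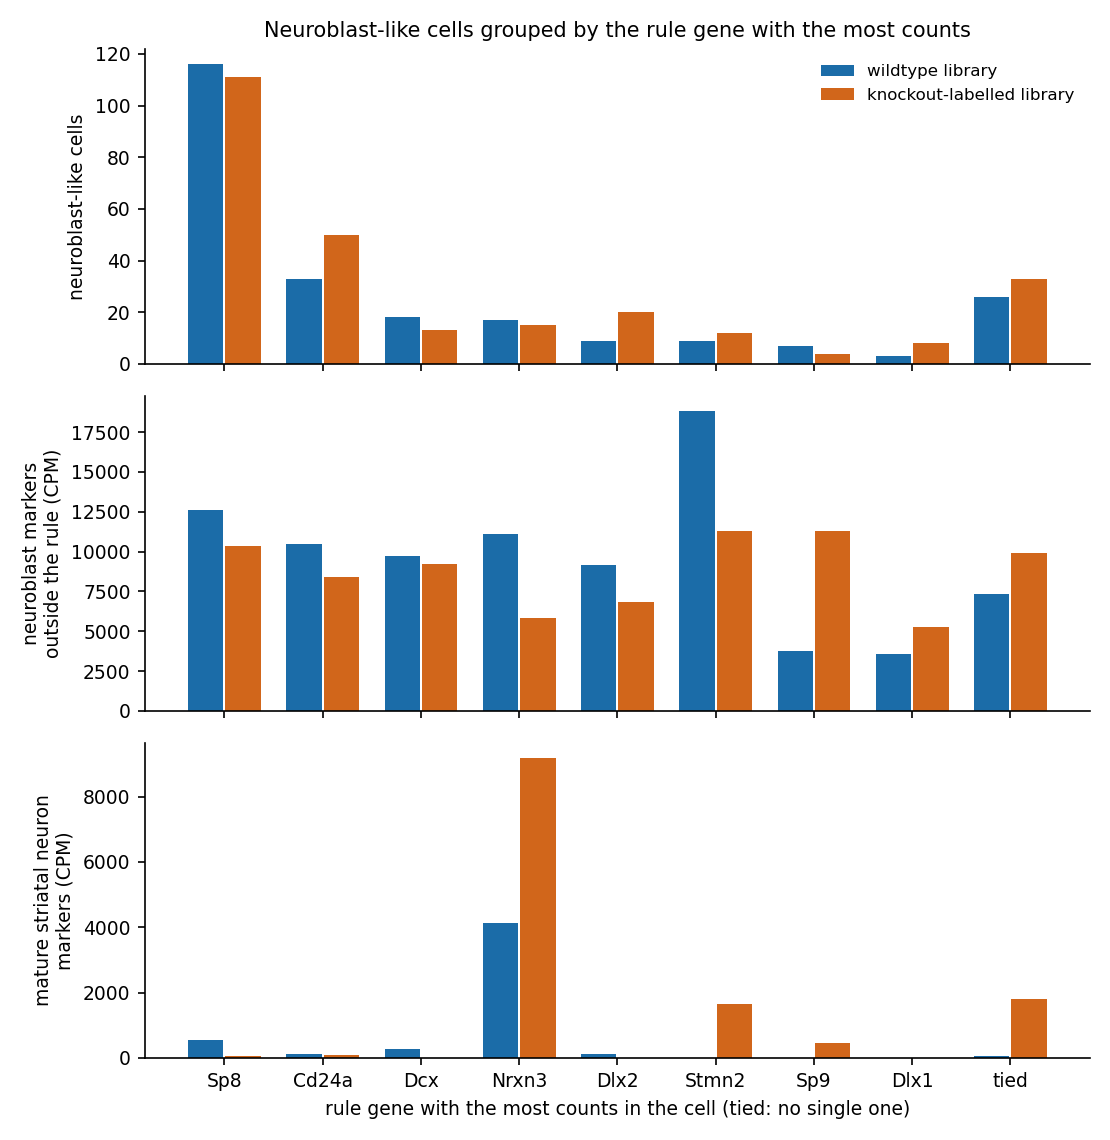
Neuroblast-like cells grouped by the rule gene with the most counts in the cell, with bars for the wildtype and knockout-labelled libraries: number of cells (top), summed CPM of 9 neuroblast markers outside the rule (middle) and of 11 mature striatal neuron markers (bottom). Sp8 leads in 116 and 111 cells, and the mature neuron markers peak in the Nrxn3-led cells at 4133 and 9182 CPM.

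Cells with a cycling count differed from those without. The unused neuroblast markers were at 6738 CPM in the 65 wildtype neuroblast-like cells with a cycling count and at 13998 CPM in the other 173. The knockout-labelled library had 6522 CPM in 108 cells and 12027 CPM in 158. Depth moved with this split, since medians were 888 against 449 counts in the wildtype and 893.5 against 468.5 in the knockout-labelled library; its part in the difference was not tested. At the border of the rule, the 26 and 29 cells with a sum of exactly 3 had unused neuroblast markers at 17681 and 6468 CPM. The 34 and 45 cells just outside, with a sum of 2 that still exceeded the glial and cycling sums, had 9586 and 7288 CPM. A further 46 and 63 cells reached 3 counts but did not exceed the glial or cycling sum, and carried these markers at 4812 and 2748 CPM.

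Over 7334 genes with 30 or more counts in the fresh cells and outside the rule, 325 (4.43%) were 2-fold or more higher in the neuroblast-like cells than in all other cells in both libraries. In the other direction, 1374 (18.7%) were 2-fold or more lower in both. With genes at 0 counts set to 3 counts, which gives a bound, 937 remained past 2-fold on the lower side and 325 on the higher. The median log2 ratio over all tested genes was -0.28 in the wildtype and -0.41 in the knockout-labelled library, and trimmed-mean scaling moved it by 0.13 in the latter. Since the rule chose the cells by their counts, these ratios describe them and carry no test. The ratios add 0.5 counts to each sum, and folds are plain ratios of CPM.

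The 15 genes highest by the smaller ratio of both libraries were Dlx5, Bcl11b, Nrep, Gad1, Tiam2, Dpysl5, Dlx6, Gpr85, St8sia2, Runx1t1, Pcdha11, Tmem151b, Basp1, Igfbpl1 and Cdk5r1. They held transcription factors of the interneuron lineage, the GABA-synthesising enzyme Gad1 and several proteins of the growing, moving neuron. Dlx5 and Dlx6 are neighbouring homeobox genes (chr6:6877801-6882068 and chr6:6863334-6867970). Dlx6 had 496 CPM in the wildtype neuroblast-like cells and 32.2 CPM in all other cells, 15.4-fold higher (10.1 to 24.1). In the knockout-labelled library Dlx6 was at 354 and 44.7 CPM, 7.93-fold higher (5.45 to 11.7). An antisense transcript, Dlx6os1, overlaps Dlx6, and since the use of strand in counting is not stated their counts cannot be told apart. Dlx5 was at 82.7 and 214 CPM against 7.26 and 16.2, or 11.4-fold and 13.2-fold, and had 0 counts in glial cells of both libraries. Bcl11b, a zinc finger factor of GABAergic and striatal neurons, was at 207 and 412 CPM against 18.7 and 26.4, or 11.1-fold and 15.6-fold.

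Nrep, a small cytoplasmic protein of regenerating and migrating neurons, was at 1777 and 1791 CPM against 165 and 122, 10.8-fold (8.86 to 13.1) and 14.7-fold (12.0 to 18.1) higher. It was present in 104 and 112 of the neuroblast-like cells. Thinned to 300 counts, 27.9% and 30.1% of them held a count of Nrep, against 2.49% and 1.77% of all other cells and 0 of 17 and 0 of 21 microglial cells, which allows shares of up to 17.6% and 14.3%. Runx1t1, a transcriptional corepressor, was at 1323 and 1309 CPM against 192 and 168. Its level in cycling cells was only 67.7 and 34.8 CPM, below that of the glial cells at 149 and 139 CPM. Runx1t1 was thus high in the neuroblast-like cells and low in the cycling cells of both libraries.

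Igfbpl1, a secreted protein of the insulin-like growth factor binding family, was at 396 and 358 CPM against 39.4 and 60.9, 10.0-fold and 5.88-fold higher. Cdk5r1, the activator of the kinase Cdk5 that neuronal migration needs, was at 396 and 387 CPM against 60.2 and 71.1. St8sia2, the sialyltransferase that adds polysialic acid to NCAM, had 20 and 21 counts, or 118 and 86.5 CPM against 5.19 and 12.2. Without the cells that held mature neuron counts, its wildtype fold was 13.4 in place of 22.8. Basp1, a membrane protein of growth cones, was at 2332 and 1828 CPM against 313 and 291, but the microglial cells held it at 2059 and 1610 CPM as well. Basp1 therefore separated the neuroblast-like cells from glial cells (72.8 and 87.0 CPM) and cycling cells (413 and 274 CPM) only.

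The smaller counts need care. Gad1 rested on 29 and 26 counts from 10 and 12 cells, at 171 and 107 CPM against 4.15 and 10.2, with folds of 41.3 (14.5 to 162) and 10.5 (4.92 to 24.5). Of the 26 knockout-labelled Gad1 counts, 17 lay in the cells that held mature neuron counts, and without those cells the fold there was 4.05 (1.45 to 11.1). Tiam2, an activator of Rac, had 29 and 24 counts, and Dpysl5, a collapsin response mediator protein, had 16 and 19. Pcdha11 had 8 and 30 counts; the alpha protocadherins share their 3′ exons, so these counts cannot be assigned to that member alone.

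**Figure D3:**
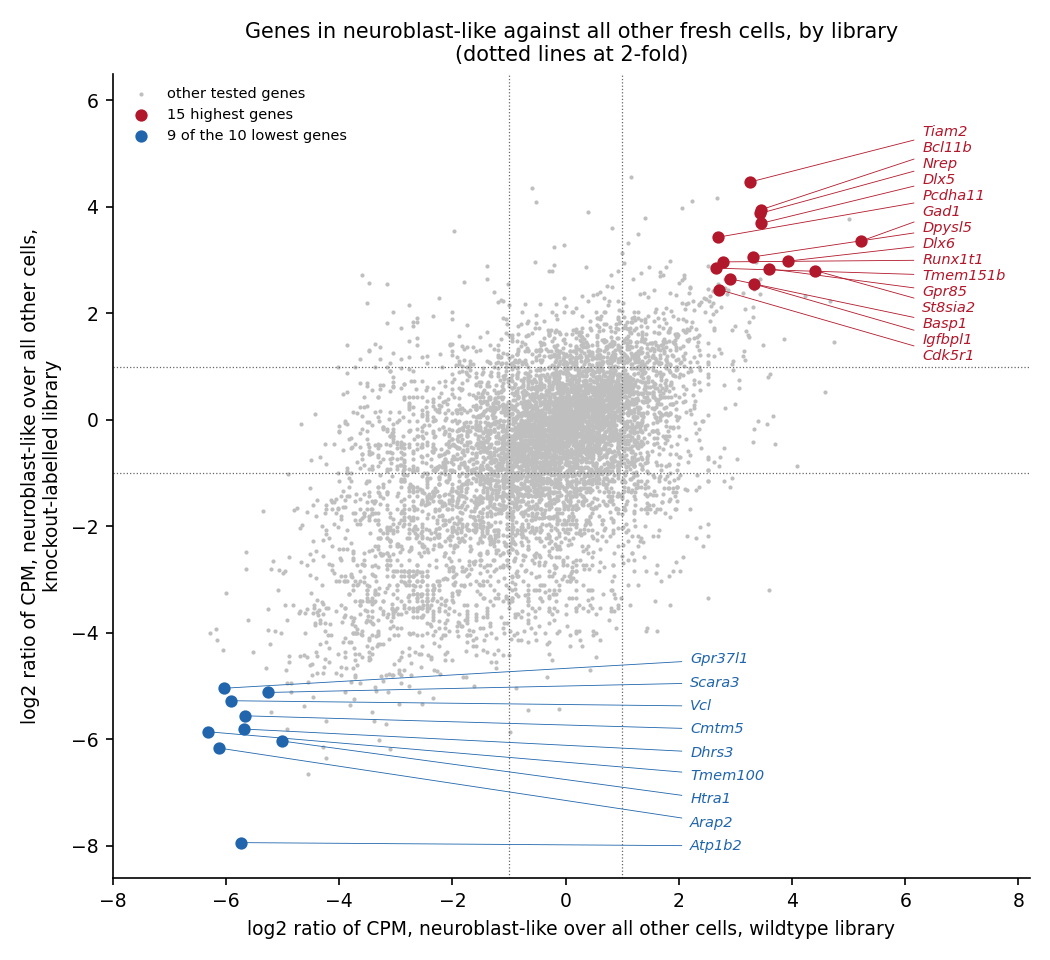
Each point is a gene with 30 or more counts: its log2 CPM ratio (0.5 counts added) of neuroblast-like to all other fresh cells in the wildtype (x) and the knockout-labelled library (y), with the 15 highest and 9 of the 10 lowest genes in colour. The named genes lie past 2-fold (dotted lines) on the same side in both libraries; 325 genes do so upward and 1374 downward.

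Among the 10 lowest genes were Arap2, Tmem100, Atp1b2, Dhrs3, Cmtm5, Vcl, Scara3, Gpr37l1 and Htra1, all higher in glial cells. Atp1b2, a beta subunit of the sodium pump in astrocytes, had 2 and 0 counts in the neuroblast-like cells against 787 and 505 CPM in all other cells. Gpr37l1, an astrocytic receptor, had 1 and 2 counts against 578 and 338 CPM, and the secreted protease Htra1 had 2 and 1 counts against 478 and 403 CPM.

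Arap2, Tmem100, Dhrs3, Cmtm5, Vcl and Scara3 had 0 counts in the neuroblast-like cells of both libraries. Against the limit that a count of 0 allows (3 counts per library), Arap2, a regulator of Arf proteins, was at least 11.5-fold and 11.9-fold lower. Vcl, the focal adhesion protein vinculin, was at least 9.96-fold and 6.41-fold lower. Vcl overlaps Ap3m1, and their counts ran together across cells (r = 0.823), so part of the counts may belong to either gene.

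**Figure D4:**
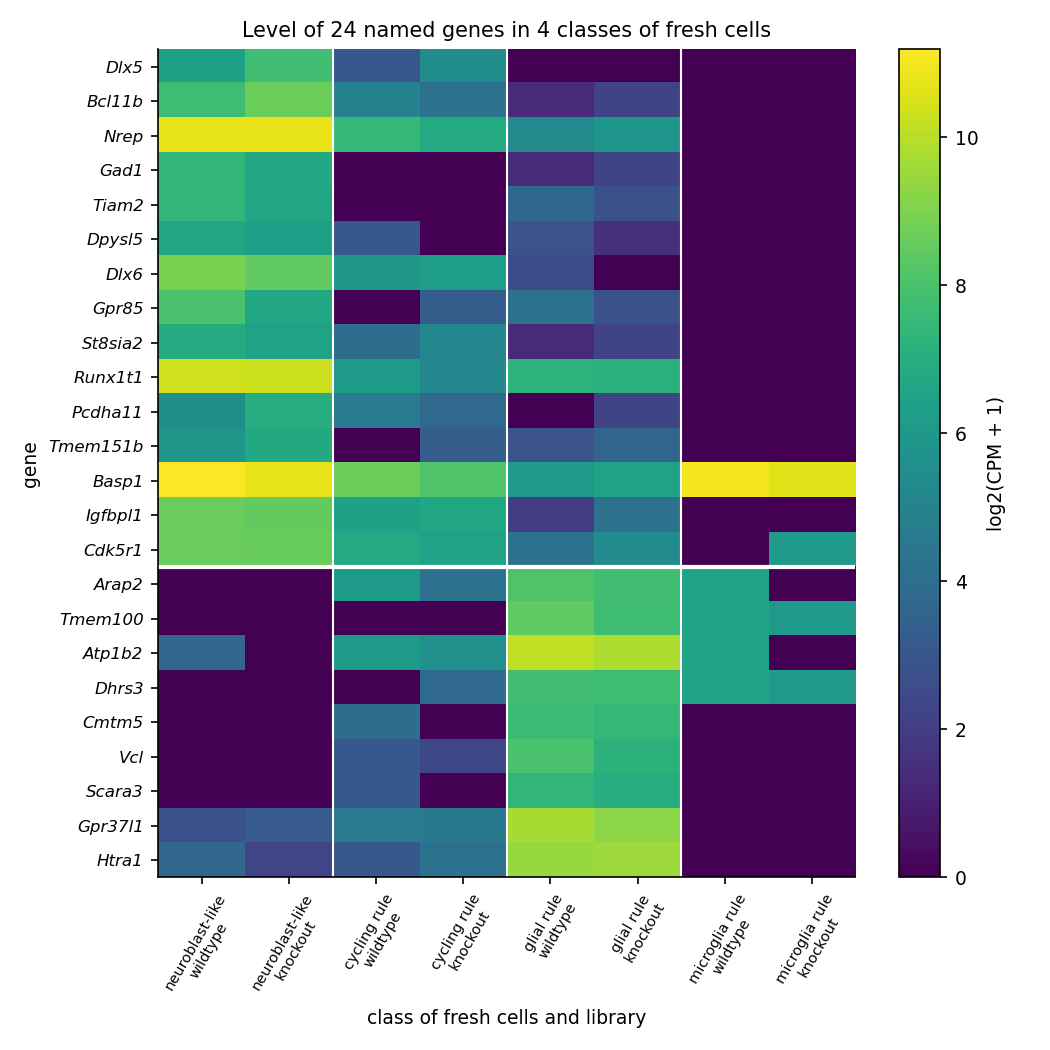
Level, as log2(CPM + 1), of the 15 highest (above the white line) and 9 of the 10 lowest genes in neuroblast-like, cycling, glial and microglial cells, each in the wildtype and the knockout-labelled library. Basp1 is also high in microglial cells (2059 and 1610 CPM), Runx1t1 is low in cycling cells (67.7 and 34.8 CPM), and the lower set is brightest in glial cells.

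Gene lists placed these genes in wider groups. Of 19 interneuron fate genes, 13 were 2-fold or more higher in both libraries and 1, Six3, lower, beside 4.43% and 18.7% of all tested genes. The list's median log2 ratio was 1.71, beside -0.36 over all tested genes. Gad2, the other GABA-synthesising enzyme, had 254 and 651 CPM against 53.9 and 37.6. Slc32a1, which loads GABA into vesicles, had 76.8 and 41.2 CPM against 24.9 and 12.2. Foxp2, a forkhead factor, was at 496 and 354 CPM against 82.0 and 77.2. Meis2, which works with Dlx factors in olfactory bulb neurogenesis, was at 1216 and 869 CPM against 401 and 328, with folds of 3.03 and 2.65. Six3 went the other way with 1 and 13 counts, at 5.90 and 53.5 CPM against 126 and 119.

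The cytoskeleton list held 17 higher genes and 1 lower gene of 23, beside 4.43% and 18.7% of all tested genes. Its median log2 ratio was 1.79. Map1b, a microtubule-associated protein of growing axons, was at 3501 and 2561 CPM against 479 and 476, 7.31-fold and 5.38-fold higher. Tuba1a, the tubulin of young neurons, was at 4405 and 3586 CPM against 1126 and 1178. Stmn1 was at 266 and 334 CPM against 80.9 and 83.3, though cycling cells also held 263 and 144 CPM. Gap43, a growth cone protein, was at 195 and 115 CPM against 7.26 and 24.4. The lower gene was Dclk1, the doublecortin-like kinase, at 897 and 803 CPM against 2520 and 1688; glial cells held it at 3379 and 2671 CPM.

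Neuronal differentiation factors and RNA-binding proteins had 11 higher and 1 lower of 18 genes, beside 4.43% and 18.7% of all tested genes. Their median log2 ratio was 1.82. Sox4, a SoxC factor of early neurons, was at 9193 and 6810 CPM against 1668 and 1665, 5.51-fold (5.14 to 5.91) and 4.09-fold (3.82 to 4.38) higher. After thinning to 300 counts, 72.1% and 71.2% of the neuroblast-like cells held a Sox4 count, as did 55.7% and 41.4% of cycling, 10.3% and 12.3% of glial and 5.88% and 9.52% of microglial cells. Shares with a Sox4 count were thus highest in neuroblast-like cells, followed by cycling and then glial cells, in both libraries. Sox11, its close relative, was at 301 and 268 CPM against 62.2 and 64.0. Elavl4 and Elavl3, neuronal RNA-binding proteins, were 4.25-fold and 6.36-fold, and 3.72-fold and 3.86-fold, higher. Myt1l, a repressor of non-neuronal genes, had 14 and 16 counts in the neuroblast-like cells and 0 in cycling and glial cells of both libraries. Nova1, a neuronal splicing factor, was lower, with 3 counts in each library against 61.2 and 55.8 CPM.

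Guidance and adhesion genes went both ways, more often higher. Of 17 tested, 7 were higher and 2 lower, beside 4.43% and 18.7% of all tested genes. The median log2 ratio was 0.23, beside -0.36 over all tested genes. Efnb2, a membrane-bound ephrin ligand, was at 880 and 819 CPM against 153 and 175, 5.77-fold and 4.69-fold higher. Erbb4, the neuregulin receptor, had 17 and 10 counts, and Robo2, a receptor for the repellent Slit, had 5 and 18. Ncam1 was at 295 and 231 CPM against 122 and 105. The lower genes Nrp1 and Nrcam had 4 and 0, and 2 and 3, counts. Cxcr4, a chemokine receptor, was at 41.3 and 16.5 CPM against 28.0 and 20.3, with intervals of its ratio of 0.542 to 3.47 and 0.202 to 2.42.

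Synapse and excitability genes had 4 higher and 2 lower of 15, beside 4.43% and 18.7% of all tested genes. Scn3a, a sodium channel of developing neurons, had 23 and 15 counts and was 10.1-fold and 4.34-fold higher. Snap25, part of the vesicle fusion machinery and also on the mature neuron list, was at 254 and 280 CPM against 65.4 and 95.4. Nlgn1, a postsynaptic adhesion protein, was lower, with 1 and 3 counts against 49.8 and 28.4 CPM.

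**Figure D5:**
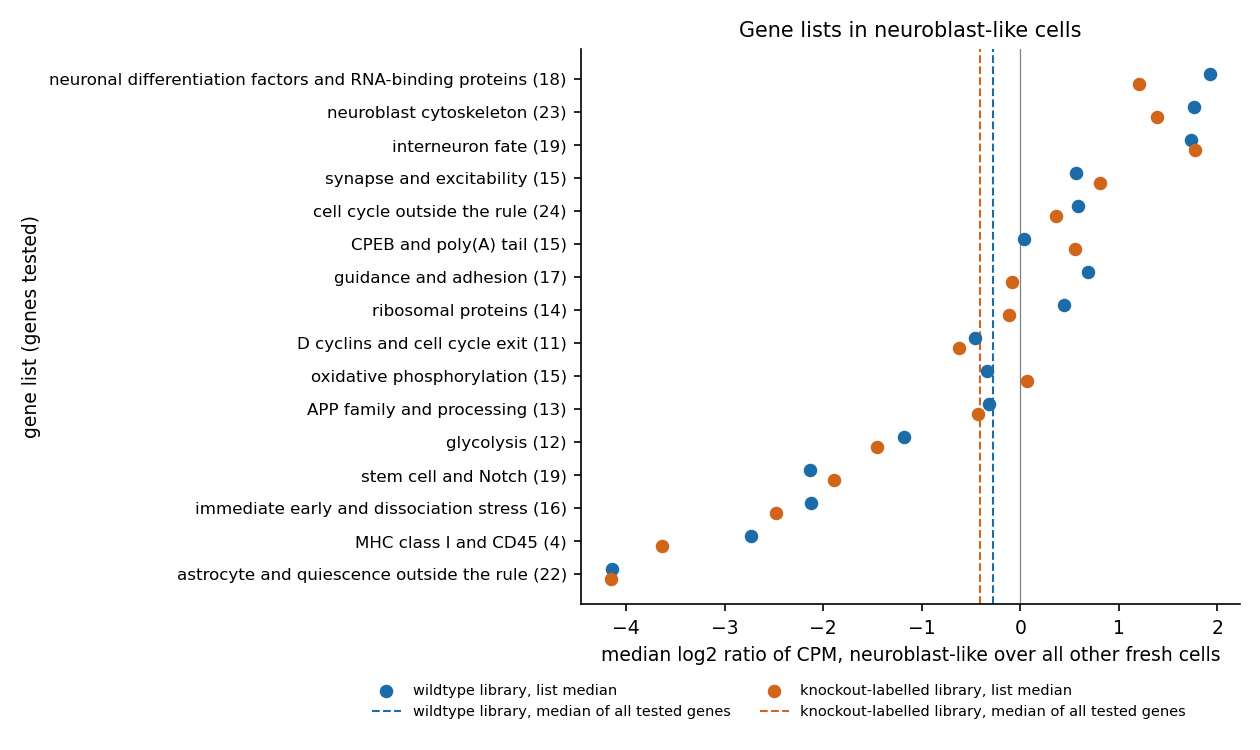
Median log2 CPM ratio of neuroblast-like to all other fresh cells for each gene list with 4 or more tested genes (number in brackets), in the wildtype and knockout-labelled libraries, with dashed lines at the median of all tested genes (-0.28 and -0.41). Neuronal differentiation, cytoskeleton and interneuron fate lists lie highest and the astrocyte list lowest in both.

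Summed over all neuroblast-like cells, cell cycle genes outside the rule were not low. Without Tubb5, 23 of them summed to 3602 and 4632 CPM, against 2187 and 3360 CPM in all other cells. Glial cells stood lower, at 1192 and 1664 CPM, and cycling cells higher, at 5706 and 6635 CPM. The sum was uneven across the neuroblast-like cells. The 65 and 108 with a count of the 6 cycling genes of the rule stood at 6866 and 7034 CPM. The 173 and 158 without such a count stood at 1283 and 1536 CPM, near the glial cells. This split was itself made on cell cycle genes and so shares the contrast. Depth moved with the split as well, and its part was not tested. Of all 24 genes, 2 (Cdk1 and Kif11) were 2-fold or more higher than in all other cells in both libraries and 1 (Tyms) was lower. Over all tested genes these shares were 4.43% and 18.7%. Mki67, the proliferation marker, had 9 and 21 counts, 53.1 and 86.5 CPM against 27.0 and 56.9, with ratio intervals of 0.812 to 4.34 and 0.875 to 2.55. Thinned to 300 counts, 38.9% and 47.0% of the neuroblast-like cells held a count of any of the 23 genes.

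Among the D cyclins and exit genes, Ccnd2 was at 4995 and 4031 CPM against 1508 and 2236, 3.31-fold and 1.80-fold higher, while Ccnd1 had 8 and 14 counts. Cycling cells held Ccnd2 at 3564 and 4168 CPM. Cdkn1b, an inhibitor of cyclin-dependent kinases, was at 2539 and 2582 CPM against 1266 and 1378. Btg1, an antiproliferative gene counted with the differentiation list, was 4.23-fold and 3.22-fold higher. Its relative Btg2 was 4.97-fold and 6.29-fold lower, and Tob1 and Cdkn1a were also 2-fold or more lower. Thus 0 of the 11 genes were higher in both libraries and 3 lower, beside 4.43% and 18.7% of all tested genes.

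Stem cell and Notch genes stood lower. Of 19 tested, 13 were 2-fold or more lower in both libraries and 1, Nfib, was higher, beside 18.7% and 4.43% of all tested genes. The median log2 ratio was -2.00, or -1.67 with genes at 0 set to 3 counts. Id2 was at 260 and 128 CPM against 2275 and 2249, and Id3 had 0 and 1 counts against 96.5 and 98.5 CPM. Notch1 was at 29.5 and 132 CPM against 422 and 353, and its target Hes5 at 195 and 325 CPM against 588 and 907. Sox9, a glial and stem cell factor, was 5.63-fold and 3.04-fold lower. Egfr, a mark of activated stem cells and transit-amplifying progenitors, was at 59.0 and 61.8 CPM against 246 and 257. Nfib, a nuclear factor I protein, was at 11189 and 9413 CPM against 4579 and 4657, and its relative Nfia at 15818 and 15042 CPM against 14323 and 13854.

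All 22 tested astrocyte and quiescence genes outside the rule were 2-fold or more lower in both libraries, beside 18.7% of all tested genes. With zeros set to 3 counts, 21 of them still were. The rule required few glial counts and shares this contrast. Their median log2 ratio was -3.95. Apoe, the lipid carrier of astrocytes, was at 171 and 140 CPM against 3650 and 3071, and the metallothionein Mt3 had 5 and 3 counts against 798 and 599 CPM. The smallest differences were those of Ntrk2, 3.62-fold and 2.32-fold lower, and Ptprz1, 2.54-fold and 3.56-fold lower.

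Immediate early genes, which tissue dissociation can also induce, were low too. Of 16 tested, 13 were 2-fold or more lower and 0 higher in both libraries, beside 18.7% and 4.43% of all tested genes. With zeros at 3 counts, 10 were lower. Fos was at 148 and 98.8 CPM against 1017 and 1649. Egr1 was at 183 and 128 CPM against 739 and 891, and Jun at 154 and 202 CPM against 365 and 547. Cycling cells of the wildtype library held Fos at 707 CPM and those of the knockout-labelled library at 361 CPM. Fos was thus lower in the neuroblast-like than in the cycling cells of both libraries.

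MHC class I transcripts were scarce. B2m had 1 and 0 counts against 71.6 and 48.7 CPM, H2-K1 0 and 1 counts, and H2-D1 1 and 0 counts, in all 238 and 266 neuroblast-like cells. Hash tags, which bind MHC class I and CD45, were scarce as well. A tag sum of 10 or more was found in 10 of 238 (4.20%) and 15 of 266 (5.64%) neuroblast-like cells, against 30.3% and 31.1% of all other cells, 34.2% and 38.0% of glial, 13.3% and 8.57% of cycling and 100% of microglial cells. Tag counts were listed for only 224 of 238 and 214 of 266 neuroblast-like cells, and for 1436 of 1469 and 969 of 1002 glial cells. The shares count cells without listed tags as below 10. Median tag counts were 3 and 2 in neuroblast-like cells and 405 and 259 in microglial cells.

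Metabolic and housekeeping lists varied. Of 12 glycolysis genes, 5 were lower and 0 higher, beside 18.7% and 4.43% of all tested genes. Aldoa was at 17.7 and 45.3 CPM against 216 and 139. Oxidative phosphorylation had 1 lower gene of 15, Sdha, a smaller share than the 18.7% of all tested genes, and a median log2 ratio of -0.30 beside their -0.36. Of 14 ribosomal protein genes, 1, Rps3, was higher, beside 4.43% of all tested genes, at 502 and 646 CPM against 227 and 312. Snhg11, the only long noncoding RNA with enough counts, was at 154 and 498 CPM against 65.4 and 151.

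In the APP family list 2 of 13 genes were lower, Dab1 (4 and 1 counts) and Aplp2 (94.5 and 70.0 CPM against 244 and 177), and 0 were higher in both libraries. That share lies below the 18.7% of all tested genes, and the list's median log2 ratio of -0.38 is close to their -0.36. App itself was at 148 CPM against 62.2 in the wildtype library and at 65.9 CPM against 79.2 in the knockout-labelled one. Among CPEB and poly(A) tail genes, 2 of 15 were higher, Nudt21 and Cnot1, beside 4.43% of all tested genes. Cpeb1 had 0 counts in the neuroblast-like cells of both libraries against 38.4 and 21.3 CPM, and Cpeb4 was at 201 and 103 CPM against 298 and 175.

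The neuroblast-like share per mouse could be set out for the few cells with 10 or more tag counts of which 75% came from 1 tag. In the 3 wildtype mice 2 of 82, 3 of 142 and 3 of 239 tagged cells were neuroblast-like (2.44%, 2.11% and 1.26%). The 3 knockout-labelled mice had 1 of 116, 3 of 157 and 6 of 133 (0.862%, 1.91% and 4.51%). The means were 1.94% ± 0.611 and 2.43% ± 1.88 (SD, n = 3 each), a difference of 0.492 percentage points that did not exceed the spread between mice (two-sided exact permutation test, p = 0.9; the smallest p this design allows is 0.1). The groups overlapped, and without knockout-labelled mouse 3 the difference was -0.55. Tagged cells held far fewer neuroblast-like cells than the libraries as a whole, so these shares are not estimates of the 10.8% and 14.2% above.

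The rule was also applied after thinning cells to 300 counts. Only 1355 of 2209 wildtype and 1293 of 1879 knockout-labelled cells were deep enough, and the shallower ones were left out. The rule chose 137 of 1355 (10.1%, 8.56 to 11.8) wildtype and 151 of 1293 (11.7%, 9.98 to 13.6) knockout-labelled cells. At full depth over all cells the shares were 10.8% and 14.2%. Depth and the set of cells both changed, and their parts were not tested. The intervals treat cells as independent and leave out the spread between mice, so they do not compare the genotypes. The same rule, thinned alike, chose 0 of 887 cells of the BMP4-treated culture and 0 of 1410 of the EGF culture, which allows shares of up to 0.338% and 0.213%. The 8 genes summed to 2662 and 3085 CPM in the unthinned fresh libraries and to 79.0 and 322 CPM in the cultures, where Cd24a gave 312 CPM of the EGF sum and Sp8 was at 0.

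Within the neuroblast-like cells the knockout-labelled library was set against the wildtype library, as a description of 1 library each. Aplp1, the targeted gene, had 30 counts in 20 wildtype cells (177 CPM) and 8 counts in 8 knockout-labelled cells (32.9 CPM), a ratio of 0.186 (0.0737 to 0.415). In all other cells the ratio was 0.208, so Aplp1 counts were reduced but present in the knockout-labelled library. App was at 148 and 65.9 CPM, a ratio of 0.446 (0.223 to 0.870), from 25 and 16 counts; with each cell given the same weight its log2 ratio was -0.37 in place of -1.15. All other cells had an App ratio of 1.27 (0.897 to 1.81). Aplp2 had a ratio of 0.741 (0.352 to 1.57).

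Of 1121 genes with 50 or more neuroblast-like counts, 56 (5%) were 2-fold or more higher and 37 (3.3%) lower in the knockout-labelled library, around a median log2 ratio of 0.01. Among the 5 highest were Arpp21, Tspan12, Rbm8a2 and Birc5. Arpp21, abundant in striatal projection neurons, went from 53.1 to 449 CPM. Its counts lay in few cells, up to 25 in a single one. Without the 7 and 12 cells that held mature neuron counts, the log2 ratio of Arpp21 was 0.43 in place of 3.01. Tspan12, a tetraspanin of Wnt and Norrin signalling, went from 29.5 to 185 CPM, and Birc5, the mitotic protein survivin, from 41.3 to 235 CPM. Rbm8a2 is a near-identical copy of Rbm8a, so its counts are uncertain, and with each cell weighted alike its log2 ratio was 1.61 in place of 2.47.

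The 5 lowest were Bcl7a, Tmod1, Tstd2, Rsrp1 and Kdm5c. Bcl7a, a subunit of the BAF chromatin remodeller, went from 260 to 78.2 CPM, or 0.301-fold; with each cell weighted alike its log2 ratio was -0.77 in place of -1.71, short of 2-fold. Tmod1, which caps actin filaments, and the overlapping Tstd2 had identical counts in every cell (r = 1), 218 and 70.0 CPM, and count as a single signal. Without the cells that held mature neuron counts, their ratio was 0.512 in place of 0.320, just short of 2-fold. Kdm5c, a histone demethylase, went from 224 to 74.1 CPM.

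The genes of the rule and the 15 highest genes were compared between the libraries in the same way. Sp8 had a ratio of 0.723 (0.667 to 0.783), Nrxn3 of 0.613, Dcx of 0.717, Cd24a of 1.24 and Dlx2 of 1.48 (1.22 to 1.80), while Nrep (1.01), Runx1t1 (0.990), Igfbpl1 (0.906) and Cdk5r1 (0.978) lay near 1. Dlx5, at 14 and 52 counts, had a ratio of 2.59 (1.41 to 5.06), and Bcl11b one of 1.99 (1.34 to 3.02), or 1.57 without the cells holding mature neuron counts. Pcdha11 had a ratio of 2.62 (1.17 to 6.60), and Gpr85, an orphan receptor, one of 0.405 (0.237 to 0.679). With each cell weighted alike their log2 ratios were 2.02 in place of 1.32 and -0.41 in place of -1.29, so that of Gpr85 fell short of 2-fold. Tiam2 had a ratio of 0.577 (0.322 to 1.03) and Gad1 of 0.625 (0.354 to 1.10), or 0.250 for Gad1 without the cells holding mature neuron counts. As lists, the cytoskeleton genes summed to 0.880 and the interneuron fate genes to 1.06 of their wildtype level, and the 23 cell cycle genes without Tubb5 to 1.29 (1.16 to 1.42). Whether any of these ratios goes beyond the spread between libraries of 1 genotype was not tested.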

How the data were processed

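Fresh cells came from the subventricular zone of adult mice and were captured with 10x Genomics chemistry, per the labels' protocols. The authors deposited whole-number counts per gene and cell for each library and counts per hash tag and barcode, with no normalization. The submitters' processing notes name the build mm10, Bowtie2, SAMtools and Cell Ranger; the sources used here give no versions, roles, annotation, use of strand or cell filters, and do not say whether a count is a read or a molecule. Tables held 13288 and 13338 genes, 12470 in both, and 99.0% of identifiers matched a symbol; coordinates are RefSeq's for GRCm38.p6, the mm10 assembly.

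All deposited cells were used. Doublets and free RNA were not removed. Counts were summed over cells of a class and scaled to CPM; calls asked for a 2-fold difference in both libraries, with 0.5 counts added, among genes with 30 or more counts. Ratio intervals are exact for independent counts. Their check on simulated data drew independent counts too, so it does not cover counts that cluster in cells. Shares carry Clopper-Pearson intervals, and thinning drew 300 counts per cell. Microglial markers included C1qa, C1qb, C1qc, Ctss, Csf1r, Tyrobp, P2ry12 and Cx3cr1. The named genes were the 15 highest with 30 or more counts in neuroblast-like cells, the 10 lowest with 100 or more in other cells, the 2 highest and 2 lowest of each list, and, between libraries, the 5 highest and 5 lowest with 50 or more counts plus Aplp1, App and Aplp2. Some genes that these rules name are not reported here. Further list genes are examples chosen after their values were seen. The members and the 17 gene lists were chosen with earlier results of these data known. Python 3.11.15, numpy 2.4.6, scipy 1.17.1, pandas 2.3.3 and edgeR 4.0.16 (for TMM factors only) were used. Alternatives changed the rule, depth, filter, scaling, pseudocount, tag limits and members. The neurosphere precipitates were not used.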

Additional observations from a re-analysis of the deposited data

Results flagged for a closer look

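Tspan12 was 6.28-fold (2.50 to 20.3) as high in the knockout-labelled as in the wildtype neuroblast-like cells, from 45 and 5 counts, while in all other fresh cells its ratio was 0.780 (0.694 to 0.877). Bcl7a went the opposite way, at 0.301 (0.166 to 0.527) in neuroblast-like cells and 1.37 (1.05 to 1.78) in all other cells, but with each cell weighted alike its log2 ratio in neuroblast-like cells was -0.77 in place of -1.71, short of 2-fold. Each stands out because the 2 groups of cells lie on opposite sides of 1 between the same libraries. The difference was not tested, since each genotype is 1 library.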

How the results depend on the processing

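The share of neuroblast-like cells depended on the rule. In the wildtype library it was 12.3% with a minimum of 2 counts, 8.47% with 5, 9.46% without Cd24a and 8.06% without Sp8. The knockout-labelled library gave 16.6%, 11.4%, 11.8% and 10.3% in the same order, 11.7% thinned to 300 counts and 20.7% (45 of 217) among cells with 500 or more genes. Its share exceeded the wildtype share under each of these settings. The number of higher genes was 705 with no filter and 148 with a minimum of 100 counts. Lower genes numbered 624 with that minimum and 759 with 2 counts added, where low counts and zeros weigh less. None of the 24 genes described changed sign or fell under 2-fold against other cells under the alternatives run.

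The mouse difference was -1.28 percentage points with 3 or more tag counts (p = 0.8, exact permutation test), and ranged from -0.55 to 1.28 when each mouse was left out. With 3 tag counts, 34 of 281 cells of wildtype mouse 1 (12.1%) were neuroblast-like. Thinned to 500 counts, 9.16% in place of 3.68% of wildtype neuroblast-like cells held Bcl11b and 35.9% in place of 27.9% held Nrep. The log2 ratio between libraries became 0.43 for Arpp21 without cells holding mature neuron or ependymal counts, and -0.77 for Bcl7a with each cell weighted alike. For the other settings named here the cause was not tested. The choices to leave out Sp8 and the shared barcodes were made after seeing the data.

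At medians of 364 and 424 counts per cell, genes with few counts are measured on sums only, and 673 of the 1374 lower genes had 0 counts in the neuroblast-like cells of 1 or both libraries. No paired analysis was possible because each genotype is 1 library and tag numbers mark different mice.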
